A study of Mus musculus with 34 samples.

Results

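Mest, Sfrp4 and Npr3 are genes known from studies of how fat depots enlarge in mice, and they were followed here in epididymal fat over generations of high fat feeding. They were found through the platform annotation, which maps 4 of the 25344 array probes to them, 1 probe each to Mest (21349) and Sfrp4 (12719) and 2 probes to Npr3 (18122 and 20007). The 3 genes stand among 18617 named genes. Per the labels, HF0 mice were the offspring of STD mice and ate a high fat diet, HF1 came from HF0, HF3 from HF2 and HF4 from HF3, all on the high fat diet. The reversal groups HF1-REV, HF3-REV and HF4-REV shared their parents with HF1, HF3 and HF4 but ate a normal diet, as did STD mice. HF2 fat was not analysed here. Each of the 34 two-colour arrays set the RNA of 1 group against that of another, with the dyes exchanged on a partner array. Experiment 1 (12 arrays) held every pairing of STD, HF0, HF3 and HF4. Experiment 2 (22 arrays) held every pairing of HF0, HF1, HF3 and HF4, the pairing of HF0 with STD on 4 arrays, and each of HF1, HF3 and HF4 with its own reversal group. The labels name no strain or age and do not say how many animals a group held or whether they were pooled, so p-values measure only the spread between the 2 experiments.

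Sfrp4 encodes a secreted frizzled-related protein, which binds Wnt ligands outside the cell and limits their signal. Wnt signalling holds back the formation of new fat cells, and soluble Wnt antagonists are made within adipose tissue. Npr3 encodes the natriuretic peptide clearance receptor. It removes natriuretic peptides that would otherwise act through Npr1, cGMP and protein kinase G to release fatty acids from adipocytes. Mest, also called Peg1, encodes an endoplasmic reticulum protein with a hydrolase fold. It is imprinted and expressed from the paternal copy, and its level in mouse fat is known to go with the enlargement of adipocytes.

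The genes lie apart in the genome (GRCm38.p6). Sfrp4 spans chr13:19623175-19632825 and Npr3 spans chr15:11839896-11907837. Mest spans chr6:30733506-30748466, holds the microRNA gene Mir335 at chr6:30741299-30741396, and overlaps at its end with Copg2 (chr6:30747554-30896815). RefSeq start-site windows, which reach from 250 bases before to 50 after a start, exist in the table used for 2 of the 3 genes, Mest and Npr3. They are shown because Mest is silenced on the maternal copy through methylation of CG pairs at its start, and Npr3, which is not known as imprinted, has a single window. Capitals mark each CG pair, and both windows read 5′ to 3′ on the gene's strand, plus for Mest (chr6:30737800-30738099) and minus for Npr3 (chr15:11907322-11907621).
Mest: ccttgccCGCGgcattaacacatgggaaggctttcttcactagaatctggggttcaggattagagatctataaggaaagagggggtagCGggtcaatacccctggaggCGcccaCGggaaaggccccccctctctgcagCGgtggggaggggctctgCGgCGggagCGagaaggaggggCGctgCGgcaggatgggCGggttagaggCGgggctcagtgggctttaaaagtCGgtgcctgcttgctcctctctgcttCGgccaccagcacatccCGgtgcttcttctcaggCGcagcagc
Npr3: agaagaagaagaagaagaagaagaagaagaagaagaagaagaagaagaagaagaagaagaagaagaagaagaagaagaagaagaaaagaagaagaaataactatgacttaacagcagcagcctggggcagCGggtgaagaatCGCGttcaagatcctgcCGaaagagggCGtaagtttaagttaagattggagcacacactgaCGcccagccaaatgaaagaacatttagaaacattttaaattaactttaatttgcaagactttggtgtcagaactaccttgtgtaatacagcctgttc
The Mest window shown, 1 of 3 for that gene, holds 17 CG pairs, and 31.4% of the 32851 RefSeq windows of the same length hold at least as many. The Mest window at the outermost start (chr6:30733256-30733555) holds 8 (48.6%), and the other overlaps the one shown. The Npr3 window holds 6, and 56.4% of the windows hold at least as many. On the minus strand the Npr3 span begins at chr15:11907837. The window ends at 11907621, so it lies inside the gene span and does not cover its outermost start. The arrays measured RNA and not methylation, and the single Mest probe reads both parental copies together.

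All values are log2 ratios, written as one group over (or against) another and turned for dye as if Cy5 had been divided by Cy3. The sources used here do not give the dye of the numerator. With Cy5 as numerator a positive value is more RNA in the group named first, and with Cy3 it is less, so that only relative directions can be read. The table gives ratios and no brightness, so the presence of adipocyte or other markers in a group cannot be checked. Dye partners of a pairing should carry the same turned ratios, and their correlation over all probes ran from -0.337 to 0.581 (median 0.318) over 19 partner pairs. The lowest was HF1 with HF1-REV, whose arrays did not mirror each other, and the labels do not settle whether 1 of their dye labels is wrong. HF3 with STD in experiment 1 gave -0.112. The STD fat of experiment 2 also stood apart. Relative to the mean of STD, HF0, HF3 and HF4, the 11 measured epididymis markers had medians of -2.48 to -0.75 in the other groups of that experiment, against 3.80 in STD, and in experiment 1 of -0.71 to 0.14 in the high fat groups, against 0.92 in STD. In whole fat, a smaller number of cells of a type and less RNA per cell cannot be told apart.

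Sfrp4 separated STD from every high fat group it was paired with. In HF0 over STD the ratio was 1.12 and 0.72 on the arrays of experiment 1 and 2.31, 2.40, 3.02 and 2.69 on those of experiment 2. In experiment 1 it was 1.45 and 0.97 in HF3 over STD, and 0.40 and 1.01 in HF4 over STD. All 10 arrays that held STD were thus positive for Sfrp4, and 0.223% of the 22879 features (genes, or probes with no gene) were positive on all 10, with 0.406% negative on all 10. These arrays share 2 STD values, 1 per experiment, and are not independent.

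Over the 12 group values, 4 in experiment 1 and 8 in experiment 2, limma gave Sfrp4 a log2 ratio of 1.88 ± 0.38 in HF0 against STD (SE, adjusted p = 0.629). The unadjusted p of 0.00234 ranked 78 among 22879 features. No feature passed the adjusted threshold of 0.05 in that comparison (0% called), while 7.36% had an unadjusted p under 0.05. HF3 against STD gave Sfrp4 1.55 ± 0.38 (adjusted p = 0.626), with 0% of features called and 7.47% at an unadjusted p under 0.05. HF4 against STD gave 1.54 ± 0.38 (adjusted p = 0.158), where 0.437% of features were called, Sfrp4 not among them, and 15% had an unadjusted p under 0.05.

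The size of the Sfrp4 difference depended on the experiment. HF0 against STD was 1.15 in experiment 1 and 2.61 in experiment 2, with the same direction in both. The pairings of experiment 1 did not sum well: HF3 over STD averaged 1.21 on its arrays, where the group values gave 0.74. The 4 arrays of HF0 with STD in experiment 2 were labelled on 2 dates, whose means were 2.50 and 2.71. The arrays with a reversal group shared the date that gave 2.50. Those of HF1 with HF0, HF3 and HF4, and of HF3 with HF0, had another date in that experiment. Without the STD value of experiment 2, an alternative chosen after the data were seen, HF0 against STD was 1.16 (adjusted p = 0.368), HF3 against STD 0.84 and HF4 against STD 0.83. The residual SD between experiments was 0.52 for Sfrp4, against 0.25 for Mest, 0.11 for Npr3 and a median of 0.15 over all features.

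**Figure D1:**
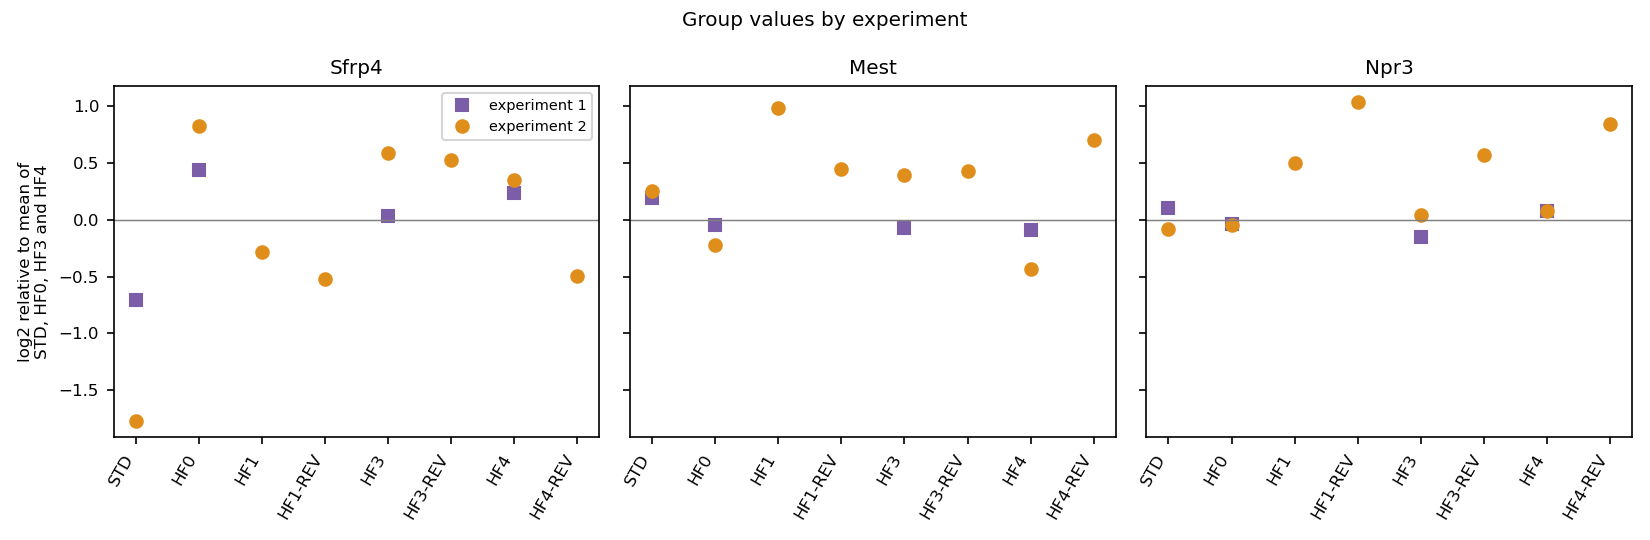
Group values of Sfrp4, Mest and Npr3 (the mean of its 2 probes) in each experiment, as log2 relative to the mean of STD, HF0, HF3 and HF4 of that experiment; each point is 1 group in 1 experiment. As labelled, STD lies lowest for Sfrp4 in both experiments, HF1 highest for Mest, and the 3 reversal groups highest for Npr3.

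Markers of other cell types moved in the same comparison. All 15 measured macrophage markers were positive in HF0 against STD, with a median of 0.79 and none called, beside a median of 0.01 over all features. In experiment 1 their median was 0.27, and in experiment 2 it was 1.12. The 11 epididymis markers were all negative (median -3.48), and 15 of 17 adipocyte markers were negative (median -0.57). Of 20 male germ cell markers 18 were negative (median -1.75), none called, with medians of -0.98 in experiment 1 and -2.15 in experiment 2. Lipe and Cidec, which encode hormone-sensitive lipase and a lipid droplet protein, were at -0.59 and -1.29. The part of these markers in the Sfrp4 difference was not tested.

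Among the high fat groups, Sfrp4 was lowest in HF1, with no comparison past the threshold. In HF1 over HF0 the arrays read -1.35 and -1.43, and the estimate was -0.92 ± 0.48 (limma, adjusted p = 0.731), in a comparison with 0% of features called and 7.18% at an unadjusted p under 0.05. HF3 over HF1 read 1.37 and 0.23, and HF4 over HF1 read 0.61 and 0.25. Their estimates were 0.59 ± 0.48 and 0.58 ± 0.48 (adjusted p = 0.818 and 0.630). Both arrays of each of these HF1 pairings lay on the same side of 0. HF3 over HF0 and HF4 over HF0 were negative on all 8 arrays of the 2 experiments, with values between -0.68 and -0.02. HF4 over HF3 was 0.47 and 0.78 in experiment 1 against 0.01 and -0.41 in experiment 2, so its direction differed between the experiments. Neither HF3 against HF0 (7.8% at an unadjusted p under 0.05) nor HF4 against HF3 (5.5%) had any feature past the adjusted threshold.

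As labelled, the change back to a normal diet gave no uniform Sfrp4 difference. HF1 over HF1-REV read -0.26 and 0.73, HF3 over HF3-REV 0.05 and 0.07, and HF4 over HF4-REV 0.99 and 0.72. The arrays of HF1 with HF1-REV are those that did not mirror each other. With 1 wrong dye label both would have the same sign for Sfrp4, and the labels do not settle this. The estimates were 0.24 ± 0.53, -0.22 ± 0.48 and 0.80 ± 0.48, with adjusted p of 1.00, 0.855 and 0.313 from limma. The HF3 estimate has the opposite sign to its arrays because the HF3 value averages both experiments. Without the STD value of experiment 2 the HF4 estimate was 0.97 and passed the threshold (adjusted p = 0.0150), as did 21.3% of all features. In order from high to low, the Sfrp4 group values were HF0 (0.63), HF3-REV (0.53), HF3 (0.31), HF4 (0.30), HF1 (-0.28), HF4-REV (-0.50), HF1-REV (-0.52) and STD (-1.24). No neighbouring pair in that order passed the threshold, with gaps of 0.01 to 0.72 and adjusted p of 0.455 or more.

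**Figure D2:**
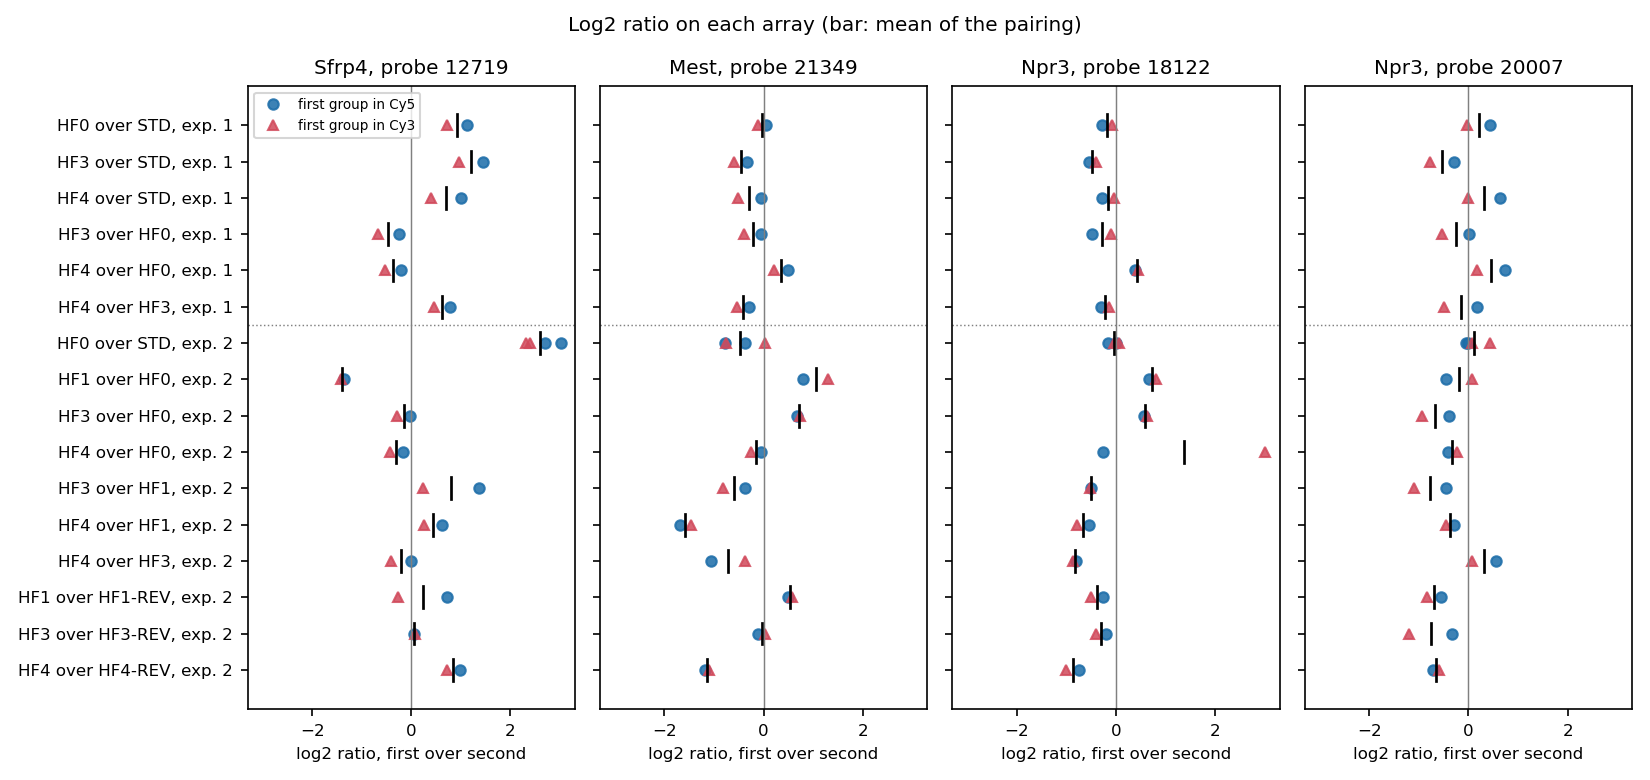
Log2 ratio of the first-named over the second-named group on each of the 34 arrays for the 4 probes, with circles where the first group was in Cy5, triangles where it was in Cy3 and bars at the mean of a pairing; the dotted line parts experiment 1 (above) from experiment 2. Sfrp4 is positive on all 10 arrays with STD, and, as labelled, both Npr3 probes are negative on all 6 arrays with a reversal group.

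Of 31 other measured Wnt ligands, receptors, antagonists and targets, none was called in any of the 12 comparisons or the 3 differences between reversals. Sfrp4 was not called either, and of all features 0% to 4.21% were called in the comparisons other than HF4 against HF4-REV (11.2%). In HF0 against STD, 21 of 31 were positive with a median of 0.10, beside a median of 0.01 over all features. The 4 with an unadjusted p under 0.05 all had the sign of Sfrp4: the ligands Wnt5b (0.60 ± 0.19) and Wnt11 (0.52 ± 0.20), the Wnt receptor Ror2 (0.60 ± 0.16) and the co-receptor Lrp6 (0.37 ± 0.15), with adjusted p of 0.640 to 0.674 in limma. Over all features, 7.36% had an unadjusted p under 0.05 in HF0 against STD, and all ratios there share the same STD values. Wnt5b, Wnt11 and Ror2 were named after their values were seen. Sfrp2, another secreted Wnt antagonist, was at 0.41 ± 0.18, Sfrp1 at 0.16 ± 0.16, and Frzb, of the same family, at 0.10 ± 0.13. Sfrp5, the family member known as an adipocyte product, was at -0.08 ± 0.12. The ligands Wnt5a and Wnt10b were at 0.15 and 0.21, the co-receptor Lrp5 at 0.00, and Axin2, a target and inhibitor of the pathway, at 0.09. In HF4 against HF4-REV the list had 17 positive and 14 negative genes with a median of 0.03, where the median of all features was also 0.03.

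Npr3 differed between high fat and reversal groups in 1 direction. Probe 18122 read -0.50 and -0.25 in HF1 over HF1-REV, -0.19 and -0.41 in HF3 over HF3-REV, and -0.74 and -1.01 in HF4 over HF4-REV. Probe 20007 read -0.83 and -0.56 in HF1 over HF1-REV, -0.32 and -1.20 in HF3 over HF3-REV, and -0.72 and -0.59 in HF4 over HF4-REV. All 12 spot values were negative as labelled, in all 3 generations and both dye orientations. The 4 values of HF1 with HF1-REV rest on the arrays that did not mirror each other, and with 1 wrong dye label each probe would have opposite signs there. The 8 values of HF3 and HF4 do not depend on them. Over all features, 2.49% were negative and 3.51% positive on all 6 arrays.

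With the 2 probes averaged, Npr3 was at -0.76 ± 0.17 in HF4 against HF4-REV (limma, adjusted p = 0.0398). HF4-REV has 1 group value, in experiment 2, and its spread is assumed to be that of the groups measured in both experiments. This was the 1 call among the 3 genes in the 12 comparisons, in a comparison where 11.2% of all features were called, 7.35% positive and 3.8% negative, and 31.4% had an unadjusted p under 0.05. The call was lost when arrays were scaled to equal spread (-0.56, adjusted p = 0.108), with quantile normalization (-0.54, 0.145), in limma on the pairing means (-0.76, 0.0971) and for each probe on its own (-0.99, 0.132 for 18122 and -0.54, 0.180 for 20007). It was also lost without any 1 of 7 arrays, with values of -0.90 to -0.63. These were both arrays of HF4 with HF0 in experiment 2 (adjusted p = 0.0903 and 0.0714), 1 array of HF4 with HF3 in each experiment (0.0514 and 0.0556), and 1 each of HF3 with STD in experiment 1 (0.0529), HF3 with HF1 (0.0515) and HF3 with HF0 in experiment 2 (0.0639). The other reversals gave Npr3 -0.62 ± 0.17 in HF3 against HF3-REV (adjusted p = 0.175), where 0.0874% of features were called and 15.4% had an unadjusted p under 0.05. Without the array of HF3 with HF3-REV that gave the smaller difference, HF3 against HF3-REV was -0.90 and passed (adjusted p = 0.0385, 7.44% of features called), and without the other array it was -0.35 and did not pass. HF1 against HF1-REV gave -0.54 ± 0.18 (adjusted p = 1.00), where 0% were called and 3.59% had an unadjusted p under 0.05. The HF1 reversal minus the HF3 reversal was 0.09 ± 0.25, HF1 minus HF4 was 0.23 ± 0.25 and HF3 minus HF4 was 0.14 ± 0.22, none called (7.77%, 18.4% and 16.7% of features at an unadjusted p under 0.05).

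The same diet contrast in the first generation looked otherwise for Npr3. Probe 18122 read -0.29 and -0.08 in HF0 over STD in experiment 1 and -0.03, 0.05, -0.15 and -0.01 in experiment 2. Probe 20007 read 0.44 and -0.03 in experiment 1 and 0.06, 0.44, -0.00 and -0.06 in experiment 2. The estimate for the mean of the probes was -0.05 ± 0.13 (limma, adjusted p = 0.955). HF3 and HF4 against STD were at -0.07 ± 0.13 and 0.07 ± 0.13. Averaged over the experiments, STD lay between HF4 and HF0. Among STD, HF0, HF3 and HF4 it was highest in experiment 1 (0.10) and lowest in experiment 2 (-0.08). On the arrays, HF3 over STD read -0.55 and -0.41 on probe 18122 and -0.29 and -0.78 on 20007. HF4 over STD read -0.03 and -0.29 on 18122 and -0.00 and 0.63 on 20007. Over the 10 arrays with STD, probe 18122 was negative on 9 and probe 20007 on 6. Whether the reversal differences differ from HF0 against STD was not tested.

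As labelled, the Npr3 group values in order were HF1-REV (1.04), HF4-REV (0.85), HF3-REV (0.57), HF1 (0.50), HF4 (0.08), STD (0.01), HF0 (-0.04) and HF3 (-0.05). HF1-REV was tied to the other groups only through the arrays that did not mirror each other. With 1 wrong dye label it would lie nearer to HF1. The gap between HF1 and HF4, 0.42 ± 0.17, had an adjusted p of 0.282, and every other gap between neighbours was 0.28 or smaller. The reversal groups and HF1 were measured in experiment 2 only. STD was set against HF0 there, and against the reversal groups only through HF0. The distances from STD also depend on an array of HF4 with HF0 in experiment 2, where probe 18122 read 3.01. Without that array Npr3 moved from 0.07 to -0.15 in HF4 against STD and from -0.76 to -0.63 in HF4 against HF4-REV. In HF1 against HF0 it moved from 0.54 to 0.41. HF1-REV, HF3-REV and HF4-REV stood 1.03 ± 0.17, 0.56 ± 0.17 and 0.83 ± 0.17 above STD on this scale, with adjusted p of 0.125, 0.173 and 0.0646, although all 4 groups ate a normal diet.

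The Npr3 probes did not always go together. In HF1 over HF0, probe 18122 read 0.66 and 0.80 while probe 20007 read -0.46 and 0.07. In HF3 over HF0 in experiment 2, 18122 read 0.57 and 0.62 and 20007 read -0.39 and -0.95. In HF4 over HF0 of the same experiment, probe 18122 read 3.01 on 1 array and -0.26 on its dye partner, where 20007 read -0.24 and -0.42. The pooled SD within pairings was 0.56 for 18122 and 0.35 for 20007, against a median of 0.41 over all probes. Over the 12 group values the probes correlated with r = 0.514 (rho = 0.448), a description of values that share arrays. Npr3 in HF4 against HF4-REV was at -0.63 without the array that read 3.01 and at -0.90 without its dye partner.

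**Figure D3:**
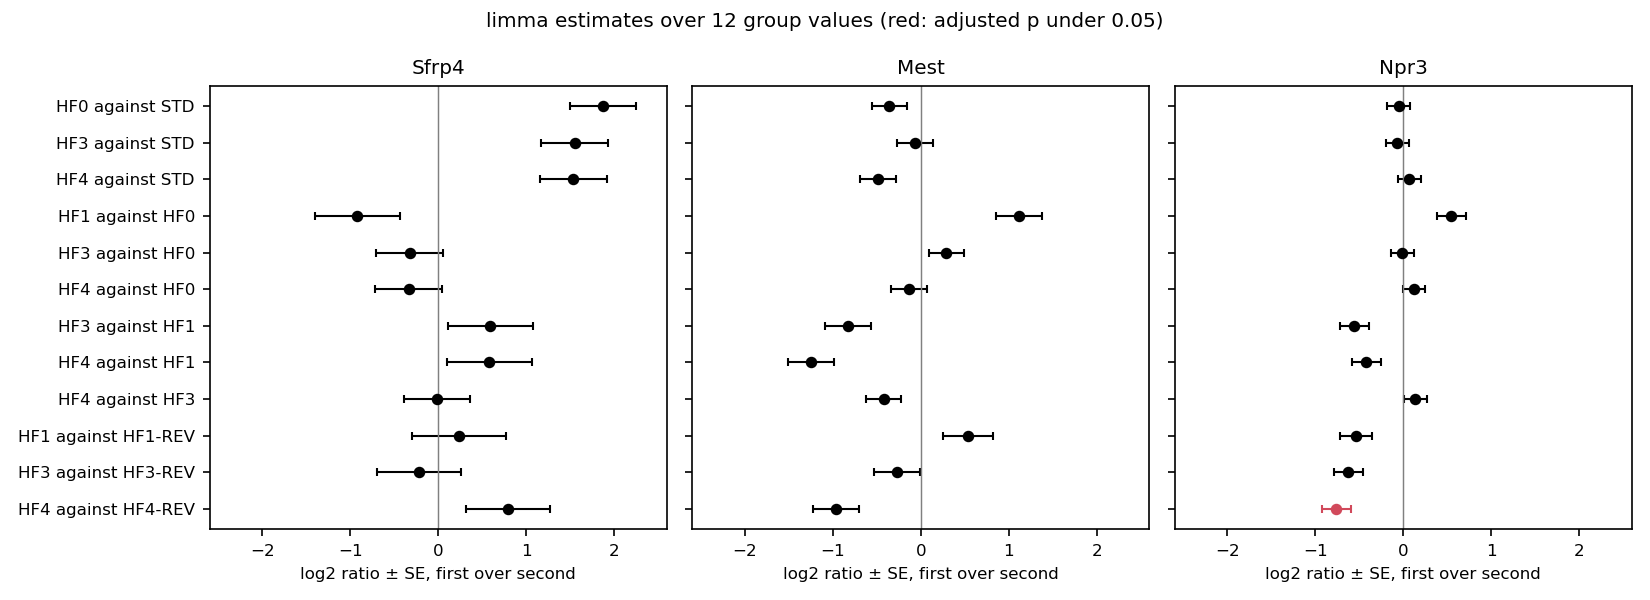
Estimates for Sfrp4, Mest and Npr3 in the 12 comparisons, as log2 ratio of the first-named over the second-named group with its SE from limma; red marks an adjusted p under 0.05. The only red point is Npr3 in HF4 against HF4-REV, at -0.76.

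The natriuretic peptide route around Npr3 was measured through 17 of 19 listed genes. In HF4 against HF4-REV, 10 were positive and 7 negative with a median of 0.05, and 2 were called, a share near the 11.2% of all features called in that comparison. Prkg1, the kinase that cGMP activates, was at 2.40 ± 0.26 (limma, adjusted p = 0.0124), and Mapk14, p38 kinase, at -2.01 ± 0.32 (adjusted p = 0.0212). Prkg1 was also called in HF4 against HF0 (2.04 ± 0.20, adjusted p = 0.00872), where 4.21% of features were called (4.19% positive) and 10.9% had an unadjusted p under 0.05. The same kinase passed in HF4 against HF1 (2.03 ± 0.26, adjusted p = 0.0256), where 2.81% were called (2.72% positive) and 16.5% had an unadjusted p under 0.05. Male germ cell markers moved in the same comparisons, with 17 of 20 called positive in HF4 against HF4-REV (median 3.72), 16 in HF4 against HF0 (median 3.39) and 9 in HF4 against HF1 (median 3.36). Their part in the Prkg1 values was not tested.

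The receptors and ligands of the route gave smaller values. Npr1, the signalling receptor for the atrial and B-type peptides, was at -0.15 ± 0.29 in HF1 against HF1-REV, 0.10 ± 0.26 in HF3 against HF3-REV and -0.12 ± 0.26 in HF4 against HF4-REV. Npr2, the receptor for the C-type peptide, was at -0.32 ± 0.47, -0.96 ± 0.42 and -0.97 ± 0.42 in the same order, with adjusted p of 1.00, 0.345 and 0.176. Nppb, the B-type peptide, was at 0.82 ± 0.20 in HF4 against HF4-REV (adjusted p = 0.0515), and Nppc, the C-type peptide, at 0.03 ± 0.45. Lipe was at -0.66, -0.71 and -0.95 and Pnpla2, adipose triglyceride lipase, at -0.57, -0.56 and -0.88 in HF1, HF3 and HF4 against their reversal groups, none called. Nppa is not among the named probes used here.

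**Figure D4:**
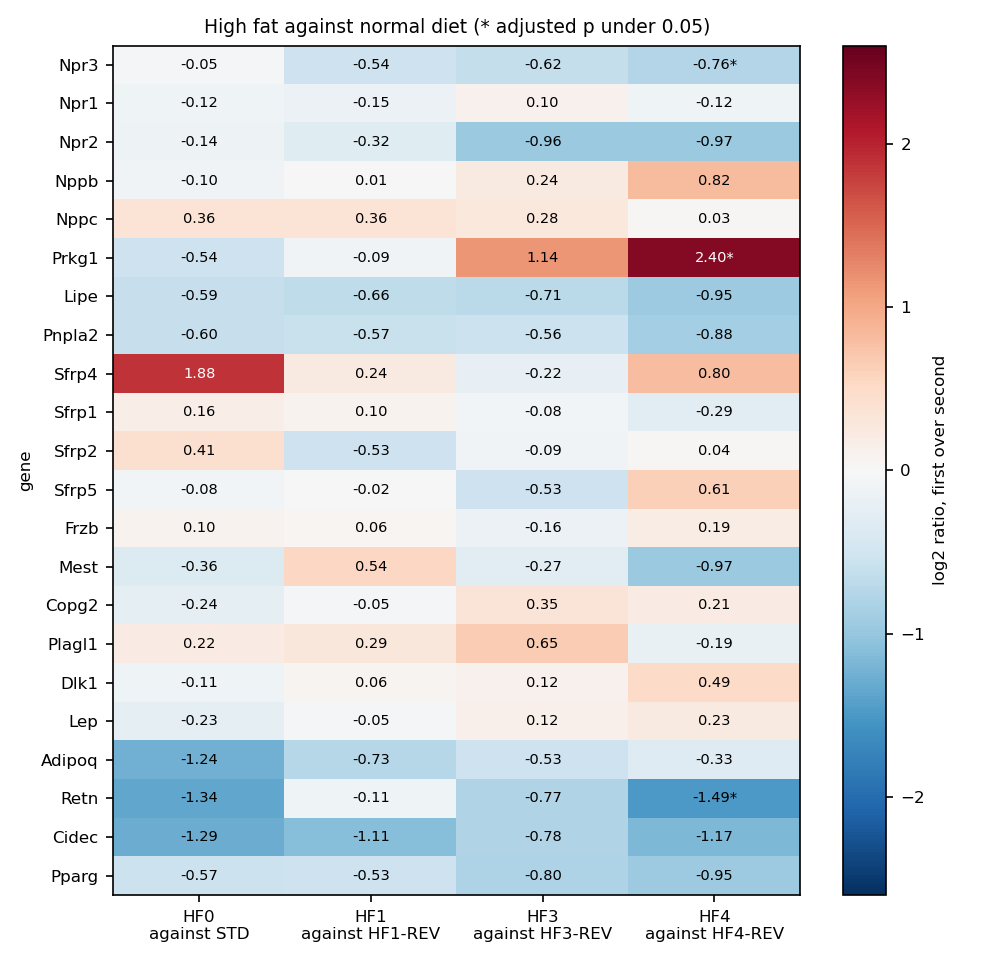
Estimated log2 ratio of high fat over normal diet groups for the 3 genes and for genes chosen by role, in HF0 against STD and in HF1, HF3 and HF4 against their reversal groups; asterisks mark an adjusted p under 0.05. As labelled, Npr3, Lipe, Pnpla2, Cidec and Pparg are negative in all 3 reversal columns, and Sfrp4 is highest in HF0 against STD (1.88).

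Most adipocyte and endothelial markers had the sign of Npr3 in the reversals as labelled. So did most preadipocyte markers in the HF3 and HF4 reversals, given with Mest below. The HF1 counts rest on the arrays that did not mirror each other. Of 17 adipocyte markers, 16 were negative in HF1 against HF1-REV (median -0.35), 13 in HF3 against HF3-REV (median -0.36) and 15 in HF4 against HF4-REV (median -0.49). The resistin gene Retn was called in HF4 against HF4-REV (-1.49 ± 0.15, limma, adjusted p = 0.0124), 1 of 17 where 11.2% of all features were called. The 12 endothelial markers had medians of -0.39, -0.50 and -0.44 in the same order, with 12, 10 and 9 negative and none called. In HF0 against STD, where Npr3 was at -0.05, the medians were -0.57 for adipocyte and -0.52 for endothelial markers. Pparg, the regulator of adipocyte formation, was at -0.57 ± 0.25 there, and Adipoq, the adiponectin gene, at -1.24 ± 0.26. The part of these markers in the Npr3 differences was not tested. The macrophage marker Adgre1 was called negative in HF4 against HF4-REV (-1.04 ± 0.19, adjusted p = 0.0266), 1 of 15 macrophage markers, of which 12 were negative.

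**Figure D5:**
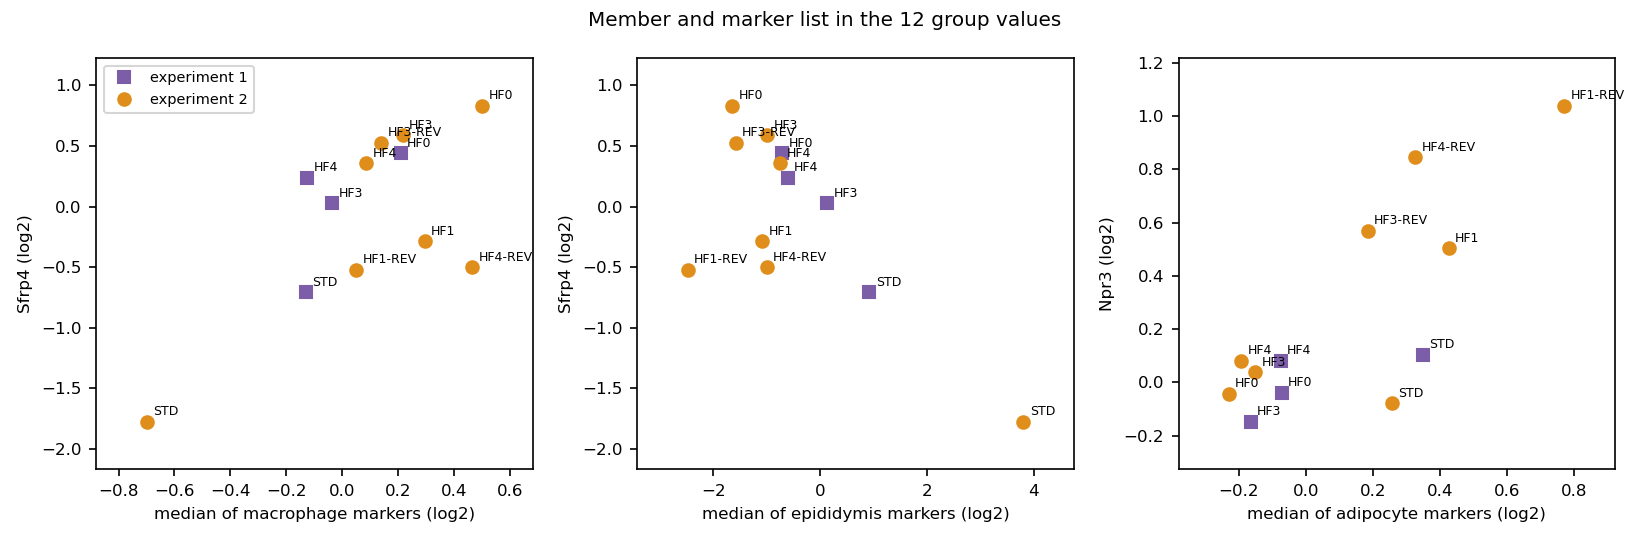
Group values of Sfrp4 against the median of 15 macrophage and of 11 epididymis markers, and of Npr3 against the median of 17 adipocyte markers, all log2; each point is 1 group in 1 experiment. STD of experiment 2 lies far from the other points in both Sfrp4 panels (epididymis median 3.80). As labelled, HF1-REV has the highest Npr3 value (1.04) and adipocyte median (0.77), and it rests on arrays that did not mirror each other.

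Mest varied mainly in experiment 2, where HF1 was highest and HF4 lowest. In HF1 over HF0 its probe read 0.80 and 1.31, in HF3 over HF1 -0.37 and -0.81, and in HF4 over HF1 -1.69 and -1.47. Every array that held HF1 thus gave HF1 the higher coded value, those with HF1-REV included as labelled. These arrays share the 1 HF1 value of experiment 2 and are not independent. The share of all features with HF1 on 1 side of all of them was not counted. The estimates were 1.12 ± 0.26 in HF1 against HF0 (limma, adjusted p = 0.689, rank 89 by p), -0.83 ± 0.26 in HF3 against HF1 (adjusted p = 0.403, 0% of features called and 9.12% at an unadjusted p under 0.05) and -1.25 ± 0.26 in HF4 against HF1 (adjusted p = 0.0692). None passed. HF4 against HF1 did pass under scale normalization (-1.19, adjusted p = 0.0446, 3.86% of features called), in limma on the pairing means (-1.25, 0.00274, 14.4% called) and without the STD value of experiment 2 (-1.26, 0.0403, 6% called).

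The Mest reversal differences had different signs in HF1 and HF4. HF1 over HF1-REV read 0.58 and 0.50, HF3 over HF3-REV -0.11 and 0.04, and HF4 over HF4-REV -1.17 and -1.10. As labelled, the HF1 arrays lay above 0, the HF3 arrays around it and the HF4 arrays below it. If 1 of the dye labels of HF1 with HF1-REV were wrong, its arrays would have opposite signs for Mest, and the labels do not settle this. The estimates were 0.54 ± 0.29 (limma, adjusted p = 1.00), -0.27 ± 0.26 (0.650) and -0.97 ± 0.26 (0.0630). The difference of the HF1 and HF4 reversals was 1.50 ± 0.39 (adjusted p = 0.145), where 0% of features were called. The HF4 reversal passed in limma on the pairing means (-1.14, adjusted p = 0.0422, 13% of features called), without the STD value of experiment 2 (-0.98, 0.0413, 21.3% called), without either array of HF4 with HF4-REV (0.0422 and 0.0443, 28.2% and 19.1% called) and without 1 array of HF4 with HF3 in experiment 2 (-1.01, 0.0485, 8.55% called). It was smaller and did not pass under scale (-0.74, adjusted p = 0.123) and quantile normalization (-0.72, 0.149). Of 14 preadipocyte markers, 7 were negative in HF1 against HF1-REV (median 0.02), 11 in HF3 against HF3-REV (median -0.27) and 13 in HF4 against HF4-REV (median -0.50), none called. Their medians in experiment 2 were -0.02, 0.34, 0.36 and -0.12 in HF0, HF1, HF3 and HF4, against 0.39, 0.41 and 0.40 in the reversal groups of HF1, HF3 and HF4. Their part in the Mest differences was not tested.

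Against STD, Mest was negative on 8 of 10 arrays, with a median of -0.36. HF0 over STD read 0.05 and -0.12 in experiment 1 and 0.02, -0.76, -0.38 and -0.78 in experiment 2. HF3 over STD read -0.33 and -0.59, and HF4 over STD -0.52 and -0.05. The estimates were -0.36 ± 0.20, -0.07 ± 0.20 and -0.49 ± 0.20 in HF0, HF3 and HF4 against STD, with adjusted p of 0.738, 0.927 and 0.338 from limma. The closed loops of experiment 1 did not sum well for Mest: HF4 over HF0 read 0.49 and 0.21, where the group values gave -0.04. In experiment 2 the same pairing read -0.26 and -0.06. Loops fitted no better for the other genes. Over both experiments, the largest distance of a pairing mean from its group values was 0.40 for Mest and 0.47 for Sfrp4. It was 0.73 for Npr3 probe 18122 and 0.47 for probe 20007.

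From high to low and as labelled, the Mest group values were HF1 (0.99), HF4-REV (0.71), HF1-REV (0.45), HF3-REV (0.43), STD (0.23), HF3 (0.16), HF0 (-0.13) and HF4 (-0.26). Neighbours were at most 0.29 apart, and none passed the threshold. In experiment 1 the 4 groups lay between -0.09 and 0.20, and in experiment 2 the 8 groups lay between -0.43 and 0.99. Along the high fat line of experiment 2, Mest was at -0.22, 0.99, 0.39 and -0.43 in HF0, HF1, HF3 and HF4. Sfrp4 was at 0.83, -0.28, 0.59 and 0.36 and Npr3 at -0.04, 0.50, 0.04 and 0.08 in the same groups. HF1 was the highest of the 4 for Mest and the mean of the Npr3 probes, and the lowest for Sfrp4. On Npr3 probe 20007 alone HF0 (0.31) lay above HF1 (0.25). In HF1 against HF0, 16 of 17 adipocyte markers were positive (median 0.40), none called.

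None of the 18 measured imprinted genes and Mest neighbours other than Mest was called in any of these comparisons, in which 0% to 11.2% of all features were called. Copg2, a coat protein gene whose end overlaps that of Mest, was at -0.84 ± 0.18 in HF1 against HF0 and 0.61 ± 0.18 in HF3 against HF1, opposite to Mest in both (adjusted p = 0.689 and 0.381). In HF4 against HF4-REV, Copg2 was at 0.21 ± 0.18. The growth factor gene Igf2 was at -0.40 ± 0.19 there, Dlk1, which restrains adipocyte formation, at 0.49 ± 0.16, the zinc finger gene Plagl1 at -0.19 ± 0.19, the adaptor gene Grb10 at -0.15 ± 0.15, and the cell cycle inhibitor Cdkn1c at 0.06 ± 0.15. Peg3 and H19 are not among the named probes used here.

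The other genes known to go with fat mass, 8 of 8 measured, had no call in any comparison; with 0% to 11.2% of all features called, 8 genes are too few to read a count of 0. In HF4 against HF4-REV, Sfrp5 was at 0.61 ± 0.15 (limma, adjusted p = 0.0552), Bmp3, a bone morphogenetic protein, at 0.22 ± 0.21, Nkd1, a Wnt inhibitor, at 0.03 ± 0.19, and Cav1, the caveolin gene, at -0.70 ± 0.31. The leptin gene Lep was at 0.23 ± 0.16 there and at -0.23 ± 0.12 in HF0 against STD. In HF1 against HF0, Cav1 was at 0.77 ± 0.31 and Lep at 0.34 ± 0.16, beside 1.12 for Mest.

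Over the 12 group values the 3 genes followed different courses. Mest and Npr3 correlated with r = 0.664 (rho = 0.622), Mest and Sfrp4 with r = -0.372 (rho = -0.378), and Sfrp4 and Npr3 with r = -0.168 (rho = -0.231). These values share arrays and a common centre, and the figures are descriptions. Among 5049 genes with an SD of at least 0.3, those most like Sfrp4 were Nox4 (r = 0.955), Nr1h4 (0.952), Gda (0.951), Il7r (0.949) and Itgbl1 (0.939). The lowest r were for Adig (-0.945), Dgat2 (-0.929) and Gstz1 (-0.928). Those most like Mest were Mtarc2 (0.945), Ciao2a (0.935), Emg1 (0.935), Npl (0.934) and Bad (0.931), with Gnl2 (-0.944), Atxn2l (-0.923) and Ddit3 (-0.91) lowest. Those most like Npr3 were Snapc5 (0.949), Mocs2 (0.947), Tmigd1 (0.936), Cd300lg (0.933) and Atad2b (0.925), with Acbd7 (-0.944), Mfap4 (-0.922) and Trib1 (-0.916) lowest.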

How the data were processed

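Epididymal fat RNA was compared on 34 two-colour arrays. The values are the log2 ratios of the authors' deposited table, 1 per probe and array (25344 probes, none missing, -6.31 to 7.99). The sources used here do not give the log base, the dye of the numerator, the background correction or the normalization. Values above 4.82, the most that base 10 allows on a 16-bit scanner, led to base 2; a natural log is possible, so nothing was converted to fold. With ratios only, no dim spots could be removed. Precision is limited by the number of experiments as well as of arrays, because dye partners are averaged and not counted as replicates. Per the labels, Trizol was used for RNA in experiment 1 and Qiagen reagents in experiment 2, so extraction and experiment cannot be told apart.

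Arrays were centred on their median and turned for dye. Probes of a gene were averaged (22879 features). Of the probes, 21082 had 1 symbol, 30 several and 4232 none. Dye partners were averaged, and least squares then gave each experiment's group values, set against the mean of STD, HF0, HF3 and HF4. limma 3.58.1 (R 4.3.3; lmFit, eBayes) was run on the 12 group values with experiment as a block, with 3 residual and 3.16 prior degrees of freedom. HF1 and the reversal groups have 1 value each and are assumed to vary like the others. p-values were Benjamini-Hochberg adjusted over all features (threshold 0.05). The scripts were tested on simulated group values drawn independently, whereas the real group values share arrays, so the test does not cover that dependence. In it 75 of 100 changes of log2 1 were recovered in HF0 against STD. Fewer were recovered in HF1 against HF0 and HF4 against HF4-REV. Python 3.11.15, numpy 2.4.6, pandas 2.3.3 and matplotlib 3.10.9 were used.

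The 3 genes and the gene lists were chosen with earlier results of these data known. Genes were named by role (33, of which 30 were measured), by passing the threshold within a list, or as the 5 highest and 3 lowest Pearson r to a member. Outside these rules, Wnt5b, Wnt11 and Ror2 were named after their values were seen, for an unadjusted p under 0.05 in HF0 against STD. Male germ cell markers past the threshold are given as counts. Alternatives were scale and quantile normalization, each probe as its own feature, a robust prior, limma on pairing means, and leaving out each array or, chosen after the data were seen, the STD value of experiment 2. No other splits were made. No 2 arrays held identical values.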

Additional observations from a re-analysis of the deposited data

Results flagged for a closer look

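Mest in diet reversal in HF1 minus diet reversal in HF4, 1.50 ± 0.39 on the log2 scale, is listed because both arrays of HF1 over HF1-REV were positive (0.50 and 0.58) and both arrays of HF4 over HF4-REV were negative (-1.17 and -1.10). limma's test of that difference gave an unadjusted p of 0.00763 and an adjusted p of 0.145, so it did not pass. Over all alternatives the difference ran from 1.34 to 1.68 and the adjusted p from 0.0729 to 0.258. The HF1 side rests on the 2 arrays that did not mirror each other: with 1 wrong dye label they would have opposite signs.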

How the results depend on the processing

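Every value rests on 1 or 2 experiments. Calls moved with the fit, and the cause was not tested. The counts of features past the threshold were 100 (HF4 against STD), 963 (HF4 against HF0), 644 (HF4 against HF1), 20 (HF3 against HF3-REV) and 2552 (HF4 against HF4-REV), and 0 elsewhere. The fit used the pairing of 2 groups on each array and averaged dye partners. Replicate numbers were given in accession order and pair no samples, so arrays of different pairings were not matched by them. The robust prior changed no direction or call of the 3 genes. Scale normalization gave counts of 310 (HF4 against STD), 121 (HF3 against HF0), 227 (HF3 against HF3-REV) and 1094 (HF4 against HF4-REV). Sfrp4 in HF4 against STD then passed at 1.46 (limma, adjusted p = 0.0437) and Mest in HF4 against HF1 at -1.19, Npr3 in HF4 against HF4-REV did not (-0.56), and the Npr3 reversal differences HF1 minus HF4 and HF3 minus HF4 turned to -0.039 and -0.062. Quantile normalization gave 0 (HF4 against STD), 429 (HF4 against HF1), 131 (HF3 against HF3-REV) and 72 (HF4 against HF4-REV). Npr3 was then at -0.037 in HF4 against STD, -0.54 in HF4 against HF4-REV (not passed), and -0.11 and -0.17 in the same 2 differences. With each probe its own feature, HF4 against STD had 46 and HF3 against HF3-REV 0. Npr3 probe 18122 turned to 0.26 in HF3 against STD, 0.42 in HF3 against HF0 and -0.056 in HF4 against HF3, and gave -0.99 in HF4 against HF4-REV, not passed. Probe 20007 turned to 0.053, -0.068 and -0.12 in HF0 and HF4 against STD and HF4 against HF0, gave -0.54 in HF4 against HF4-REV (not passed), and turned the reversal differences HF1 minus HF3, HF1 minus HF4 and HF3 minus HF4 to -0.067, -0.16 and -0.091.

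Limma on the pairing means, which treats arrays of 1 extract as replicates, gave 11 (HF0 against STD), 1168 (HF4 against STD), 165 (HF1 against HF0), 1076 (HF3 against HF0), 2294 (HF4 against HF0), 158 (HF3 against HF1), 3290 (HF4 against HF1), 45 (HF1 against HF1-REV), 147 (HF3 against HF3-REV), and 29, 258 and 202 for the 3 reversal differences. Sfrp4 then passed in HF0 against STD (1.59, adjusted p = 0.0421) and HF4 against STD (1.12, 0.0333), and turned to 0.059 in HF3 against HF3-REV. Mest passed in HF1 against HF0 (1.14, 0.0448), HF4 against HF1 (-1.25) and HF4 against HF4-REV (-1.14). Npr3 in HF4 against HF4-REV (-0.76) did not, and it turned to -0.0099 in HF4 against STD and -0.0042 in HF1 minus HF3. Leaving out the STD value of experiment 2, chosen after the data were seen, gave 898 (HF4 against STD), 584 (HF3 against HF0), 450 (HF3 against HF1), 1372 (HF4 against HF1), 252 (HF4 against HF3), 8, 886 and 4884 (HF1, HF3 and HF4 against their reversal groups), and 1254 and 551 (HF1 minus HF4, HF3 minus HF4). Npr3 turned to -0.054 in HF4 against STD, and Mest in HF4 against HF1 (-1.26) and HF4 against HF4-REV (-0.98) and Sfrp4 in HF4 against HF4-REV (0.97) passed.

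Leaving out each array in turn gave counts of 40 to 216 (HF4 against STD), 873 to 1016 (HF4 against HF0), 492 to 804 (HF4 against HF1), 0 to 1 (HF3 against HF0), 0 to 281 (HF1 against HF1-REV), 0 to 2300 (HF3 against HF3-REV), 1512 to 6458 (HF4 against HF4-REV), and 0 to 99, 0 to 1260 and 0 to 1593 for HF1 minus HF3, HF1 minus HF4 and HF3 minus HF4. The highest counts of the reversals came without 1 array of that reversal. Without 1 array, Npr3 ran from -0.90 to -0.63 in HF4 against HF4-REV, -0.90 to -0.35 in HF3 against HF3-REV, -0.12 to 0.094 in HF3 against HF0, -0.18 to 0.041 in HF3 against STD, -0.094 to 0.34 in HF4 against HF0, -0.15 to 0.28 in HF4 against STD, -0.18 to 0.36 in HF1 minus HF3 and -0.13 to 0.41 in HF3 minus HF4. Sfrp4 ran from -0.083 to 0.059 in HF4 against HF3, -0.26 to 0.73 in HF1 against HF1-REV and -0.040 to 0.95 in HF1 minus HF3, and Mest from -1.01 to -0.92 in HF4 against HF4-REV.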
